A study of Ovis aries with 19 samples.

Results

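Fatty acids reach the mitochondrial matrix in steps, and the genes described here encode the enzymes of those steps together with the enzymes that make and use ketone bodies. The members were taken by name from a list of 35 genes, and a member had to have a mean normalized read count of at least 10 in liver or in muscle. Of the 35, 33 were members, out of 28524 gene identifiers measured and 14909 with a mean of at least 10 in liver or muscle. ACADM and ACAD10 were not analysed here. BDH1 had a mean under 10 in liver and ACSL6 in muscle, so 32 members were tested in each tissue and 31 in both. The minimum mean used levels only, not the difference between groups. The names in the list, however, were chosen with earlier results of these data known.

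The samples were liver and muscle of 10 female sheep, and total RNA of each tissue was sequenced. Control sheep gave 4 liver and 5 muscle libraries, and sheep labelled with prenatal T-treatment, which the series title gives as testosterone excess before birth, gave 5 liver and 5 muscle libraries. Sheep 132, a control, had a muscle library only. Every replicate was a separate animal. No dose, age, breed or name of the muscle is given in the labels used here. The liver libraries held 10236610 to 16046301 reads each, and the muscle libraries 8455563 to 14331578. The tissue labels matched the markers. The normalized read counts of 11 hepatocyte markers summed to 934633 or more in every liver and to 166 or less in every muscle, and those of 11 skeletal muscle markers to 1007435 or more in every muscle and to 332 or less in every liver. In bulk tissue, fewer cells of a type and less RNA per cell cannot be told apart.

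As background, long-chain fatty acids are joined to coenzyme A by the acyl-CoA synthetases (ACSL). They pass the inner mitochondrial membrane as carnitine esters, made by carnitine palmitoyltransferase 1 (CPT1A in liver, CPT1B in muscle) and turned back by CPT2. In the matrix, acyl-CoA dehydrogenases, a hydratase, a hydroxyacyl-CoA dehydrogenase and a thiolase shorten the chain, and the electrons go through the electron transfer flavoprotein to the respiratory chain. Liver can turn the acetyl-CoA into ketone bodies for export, and muscle and other tissues burn them through OXCT1. Ruminant liver draws on fatty acids and propionate rather than on dietary glucose.

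Some libraries stood apart from their group across the members. The treated liver of sheep 185 was the lowest treated liver for 19 of 32 members, while it was the lowest for 30.3% of all genes tested. Its median distance from the control mean over the members was -0.76 on the log2 scale, against -0.28 to -0.092 in the other treated livers. The control liver of sheep 179 was the highest control for 17 members, against 38.1% of all genes, and that of sheep 201 the lowest control for 15, against 27.3%. In muscle, control sheep 131 was the highest control for 20 of 32 members (23.0% of all genes) and control sheep 132 the lowest for 14 (24.2%). The treated muscle of sheep 63 was the highest treated one for 18 members (18.5%), and that of sheep 48 the lowest for 12 (19.5%).

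The first comparison asked which members were the liver forms and which the muscle forms in control sheep. In muscle, 11 of 33 members were higher and 18 were lower than in liver at an adjusted p below 0.05 (limma, Benjamini-Hochberg over all genes), and 4 did not pass. These counts include ACSL6 and BDH1, which met the minimum mean only through the tissue where they are high, so that their calls follow from the filter. Among the 31 members that met it in both tissues, 10 were higher in muscle and 17 in liver. Of all 14909 genes tested, 32.7% were higher in muscle and 36.1% were higher in liver. Values here are read counts rescaled over both tissues, and differences are log2 muscle minus log2 liver. They compare a gene between tissues and not genes with each other, since they are not per length.

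Activation was split between tissues. ACSL5, an acyl-CoA synthetase of liver and intestine, had 2599 ± 329 (SD, n = 4) rescaled reads in control liver and 48.0 ± 14.1 (SD, n = 5) in control muscle, 54.1-fold higher in liver. ACSL4, which prefers arachidonic acid, was higher in muscle, at 1764 ± 194 (SD, n = 5) against 219.9 ± 71.0 (SD, n = 4). ACSL3 was higher in muscle too, by 1.94 ± 0.34 (SE). For ACSL1, the main ACSL of liver and muscle, the difference of -0.61 ± 0.27 (SE) did not pass (limma adjusted p = 0.0561), and with the sheep as a block it did (adjusted p = 0.0487). ACSL6, a brain form, stood at 14.0 in liver and 5.06 in muscle.

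The carnitine shuttle held the pair of opposite forms. CPT1A was higher in liver, with 4336 ± 995 (SD, n = 4) against 361 ± 33.6 (SD, n = 5), a difference of -3.56 ± 0.19 (SE, limma adjusted p = 1.65e-09). CPT1B was 11.5-fold higher in muscle, with 2479.5 ± 632 (SD, n = 5) against 216 ± 44.8 (SD, n = 4) and a difference of 3.50 ± 0.22 (SE, limma adjusted p = 7.63e-09). CPT2, which has no tissue form, was 2.38-fold higher in liver. CRAT, which moves short acyl groups between carnitine and coenzyme A, was 2.68-fold higher in muscle. MLYCD, which removes malonyl-CoA, the inhibitor of CPT1, did not pass, at 0.12 ± 0.24 (SE).

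Chain shortening was uneven. All 3 peroxisomal members were higher in liver. ACAA1, the peroxisomal thiolase, was 31.0-fold higher there, EHHADH, the peroxisomal bifunctional enzyme, 22.1-fold and HSD17B4, which acts on branched and very long chains, 7.77-fold. All 3 enzymes for unsaturated chains were also higher in liver, ECI1 by 7.16-fold, ECI2 by 4.19-fold and DECR1 by 2.57-fold. The membrane-bound trifunctional protein went the other way. HADHA, its hydratase and dehydrogenase subunit, was 1.83-fold higher in muscle (limma adjusted p = 0.00515), and HADHB, its thiolase subunit, 1.71-fold (limma adjusted p = 0.00959). The soluble enzymes for shorter chains parted: HADH was 2.35-fold higher in muscle, while the hydratase ECHS1 was 5.56-fold and the thiolase ACAA2 4.43-fold higher in liver. Of the acyl-CoA dehydrogenases, ACAD11, ACADL and ACAD9 were higher in liver by 8.42-fold, 3.57-fold and 1.95-fold, and ACADVL and ACADS did not pass. With the deposited scaling, which was set in each tissue alone and moved the median of all genes by 0.22, ACAD9 (adjusted p = 0.0588) and ACAT1 (adjusted p = 0.105) were no longer called.

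In electron transfer, ETFB was 4.61-fold higher in liver, while ETFA, the partner with which it forms the flavoprotein, was 1.56-fold and ETFDH, which hands the electrons to ubiquinone, 1.48-fold higher in muscle.

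Ketone genes were split as well, and OXCT1 had the largest single difference of the 33 members. OXCT1, the enzyme that activates acetoacetate for burning, had rescaled reads of 67.1 ± 8.73 (SD, n = 4) in control liver and 3744 ± 609.7 (SD, n = 5) in control muscle, 55.8-fold higher in muscle. BDH1, the mitochondrial 3-hydroxybutyrate dehydrogenase, had 0 to 3 reads in each control liver, 7 in all, and 9 to 71 reads in each control muscle, 196 in all. In the treated livers it had 1 to 4 reads each, so its liver level was near the limit of detection in both groups. BDH2, a cytosolic dehydrogenase first described for 3-hydroxybutyrate, was 3.19-fold higher in liver, and ACAT1, the mitochondrial acetoacetyl-CoA thiolase, 1.57-fold.

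**Figure D1:**
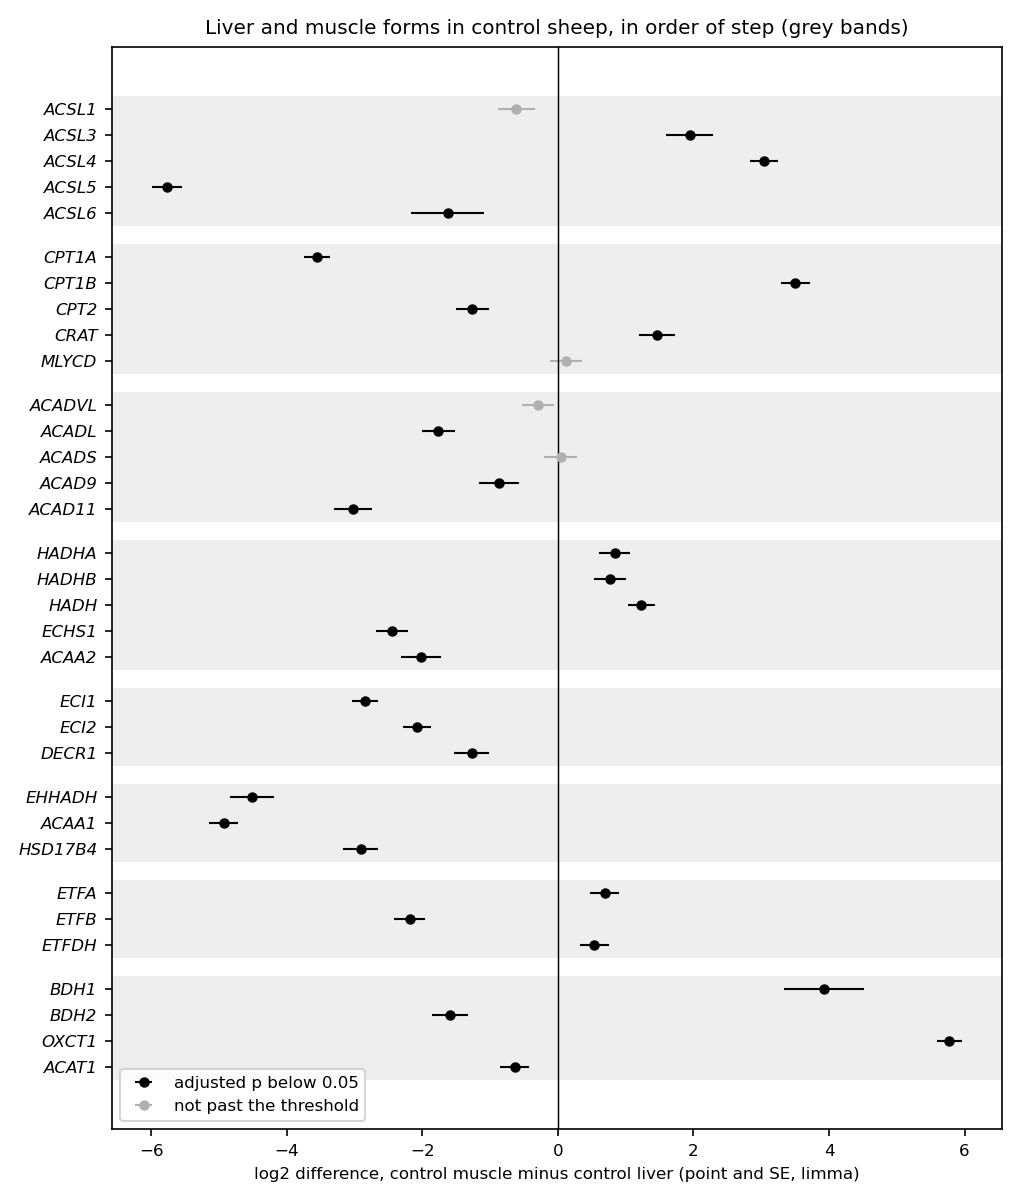
Difference between control muscle (5 libraries) and control liver (4 libraries) for each of the 33 members, on the log2 scale, with points at the limma estimate and bars of 1 SE, black where the adjusted p was below 0.05. CPT1A at -3.56 and CPT1B at 3.50 lie on opposite sides of 0, and OXCT1 at 5.77 and ACSL5 at -5.76 lie at the ends.

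The second comparison asked how the members differed in the liver of treated sheep. No member passed the adjusted threshold by limma, the smallest adjusted p being 0.835, and over all genes tested 0.00733% passed. At an unadjusted p below 0.05, 8 of 32 members (25.0%) were lower in treated liver and 0 were higher, against 2.17% of all genes lower and 1.82% higher. Since the names were chosen with earlier results of these data known, this contrast with all genes is not an independent test. The edgeR quasi-likelihood test gave 9 lower and 0 higher at that p and 0 past its adjusted threshold (0.00733% of all genes). The share of all genes at an unadjusted edgeR p is not given here, so its unadjusted counts have no background. DESeq2 called HADHA alone among the members, and 0.235% of all genes. Of the 32 members 24 lay below 0, as did 49.6% of all genes. The median log2 difference was -0.25 over the members, against 0.0032 over all genes. Without treated sheep 185 the median was -0.11 and 7 members were lower, so the median moved by more than the count did. In 5 members every treated liver lay below every control liver, which held for 0.682% of all genes, and in 0 members every treated liver lay above, against 0.858%.

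The 8 members lower at an unadjusted p below 0.05 included the activating enzymes ACSL1 and ACSL5 and both subunits of the trifunctional protein. The rest were 4 of the 5 genes grouped under the carnitine shuttle, MLYCD among them. Of the members of the other steps, 0 reached that p.

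HADHA had normalized read counts of 4552, 3558, 3966 and 4032 in the control livers of sheep 98, 131, 179 and 201, and of 2199, 2069, 2091, 2254 and 1447 in the treated livers of sheep 48, 63, 185, 233 and 255. The groups did not overlap, and the highest treated liver was well below the lowest control. The means of 4027 ± 408 (SD, n = 4) and 2012 ± 325 (SD, n = 5) gave a log2 difference of -1.01 ± 0.22 (SE), with an adjusted p of 0.835 by limma, 0.757 by edgeR and 0.00381 by DESeq2. Without 1 library at a time the difference lay between -1.07 and -0.90.

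HADHB, the partner subunit, had 6412, 6909, 9827 and 5738 in the same control livers and 5658, 3988, 3443, 4289 and 3038 in the treated ones. The groups did not overlap, but treated sheep 48 lay just under control sheep 201. The log2 difference was -0.82 ± 0.26 (SE), with an adjusted p of 0.882 by limma and 0.222 by DESeq2. In the sheep assembly ARS-UI_Ramb_v3.0 the 2 genes are neighbours with 0 protein-coding genes between them. The ratio of HADHA to HADHB within a library does not depend on the scaling. In control livers it was 0.7099 (98), 0.515 (131), 0.404 (179) and 0.703 (201), and in treated livers 0.389 (48), 0.519 (63), 0.607 (185), 0.526 (233) and 0.476 (255). These ranges overlapped, and the log2 ratio differed by -0.19 between groups (exact permutation test, two-sided, p = 0.421, adjusted p = 0.421 over both tissues). In muscle it differed by -0.21 (exact permutation p = 0.198, adjusted p = 0.397).

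In the carnitine shuttle all 5 members lay below 0 in treated liver (49.6% of all genes did), with a median log2 difference of -0.61. MLYCD had 1247, 934, 747 and 1058 in control and 566, 707, 564, 543 and 364 in treated livers, a log2 difference of -0.87 ± 0.25 (SE). CPT1B, the minor CPT1 of this tissue, had 190.1, 172, 168 and 250.4 in control and 127, 146, 132, 78.1 and 98.6 in treated livers. Both genes had every treated liver below every control, and neither passed (limma adjusted p of 0.865 and 0.976).

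CPT1A, the main CPT1 of liver and the gate of the pathway, had 4612, 3261, 4814 and 3026 in control and 3049.5, 3285, 2169.8, 1676 and 2811 in treated livers. The groups overlapped, since treated sheep 63 and 48 lay above control sheep 201. The log2 difference was -0.61 ± 0.27 (SE, limma adjusted p = 0.999). CPT2 had 1863, 1187, 1589.7 and 1097 in control and 1046, 824, 1132, 808 and 986 in treated livers, with treated sheep 185 above control sheep 201. Its log2 difference was -0.56 ± 0.23 (SE). CRAT, the remaining shuttle gene, had means of 2704 ± 867 (SD, n = 4) and 1807 ± 333 (SD, n = 5).

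Among the activating enzymes, ACSL5 had 2629, 1999, 2349 and 2424 in control and 1296, 1877, 1636, 821 and 1325 in treated livers, with no overlap and a log2 difference of -0.80 ± 0.26 (SE, limma adjusted p = 0.910). ACSL1 had 13853, 12882, 18678 and 8930.1 in control and 9423, 7239, 6489.7, 6428 and 10079 in treated livers. Its groups overlapped, because control sheep 201 lay below treated sheep 48 and 255. ACSL4 lay on the other side of 0, with means of 200.1 ± 69.6 (SD, n = 4) and 272 ± 26.9 (SD, n = 5) and a log2 difference of 0.49 ± 0.25 (SE). Its control mean was raised by sheep 179, and without that sheep ACSL4 was the 1 member higher at an unadjusted p below 0.05.

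**Figure D2:**
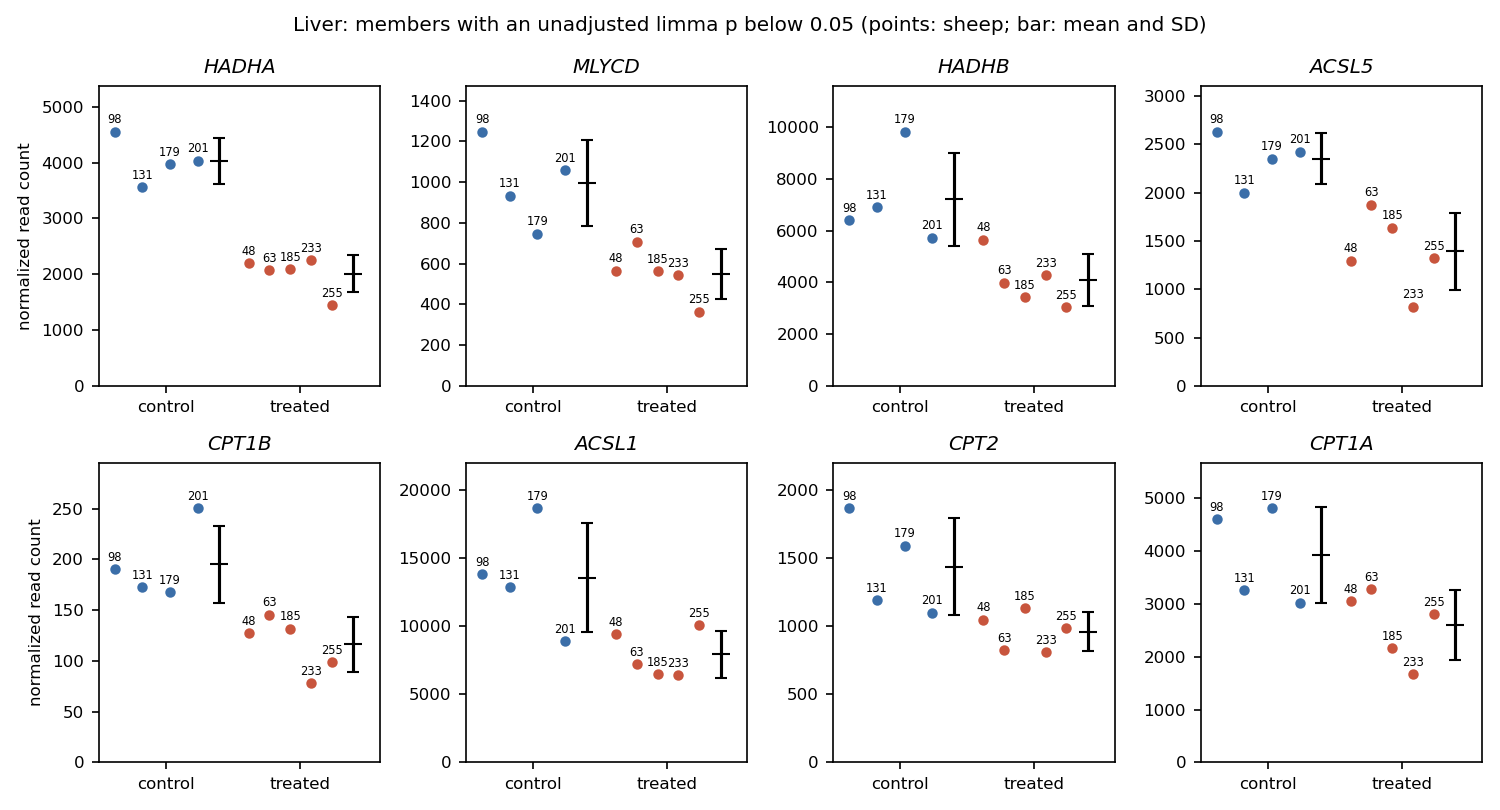
Normalized read counts in liver of the 8 members with an unadjusted limma p below 0.05, with a point per sheep (blue control, red treated, sheep number above) and a bar for the mean and SD. The treated livers lie below every control for HADHA, MLYCD, HADHB, ACSL5 and CPT1B, and overlap with them for ACSL1, CPT2 and CPT1A.

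Apart from HADHA and HADHB, the members grouped under chain shortening overlapped between groups in liver. In EHHADH, HSD17B4 and ECI1 the treated livers were more widely spread than the controls. The control mean of EHHADH was 6762 ± 2539.6 (SD, n = 4) and its treated mean 6547 ± 4702 (SD, n = 5), where sheep 185 had 1435 and sheep 255 had 13732. HSD17B4 had 1342 in treated sheep 185 and 13132 in treated sheep 255, against 2000.1 to 4895 in the controls. Without sheep 185 HSD17B4 was the 1 member higher at an unadjusted p below 0.05. ECI1, the enoyl-CoA isomerase, had 682 in treated sheep 185 and 2331 to 3439 in the other treated livers, beside 2112 to 3048 in the controls. ACAA2, the mitochondrial thiolase, had the lower treated mean, 9850.1 ± 3299 (SD, n = 5) against 15252 ± 7535 (SD, n = 4), with controls from 7839 to 22891. Of the 5 acyl-CoA dehydrogenases 3 lay below 0, with log2 differences from -0.48 (ACAD9) to 0.26 (ACAD11).

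In electron transfer, ETFDH had 1904, 1478, 1767 and 1654 in control and 1591, 1368, 1129, 1541 and 1474 in treated livers. These overlapped, and the log2 difference was -0.26 ± 0.20 (SE). ETFA and ETFB differed by 0.19 and -0.13.

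Of the ketone genes, ACAT1 had 4901, 6200.2, 8101 and 4751 in control and 5617, 5839, 2484, 5398 and 8034 in treated livers. Treated sheep 185 was the lowest of all, and without it the log2 difference of -0.19 became 0.071. OXCT1, at its low liver level, had 56.3, 58.1, 74.6 and 54.5 in control and 82.5, 57.6, 51.5, 88.8 and 127 in treated livers, a log2 difference of 0.35 ± 0.30 (SE). BDH2 had 83 in treated sheep 185 and 361 to 728 in the other treated livers, beside 274 to 677 in the controls.

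**Figure D3:**
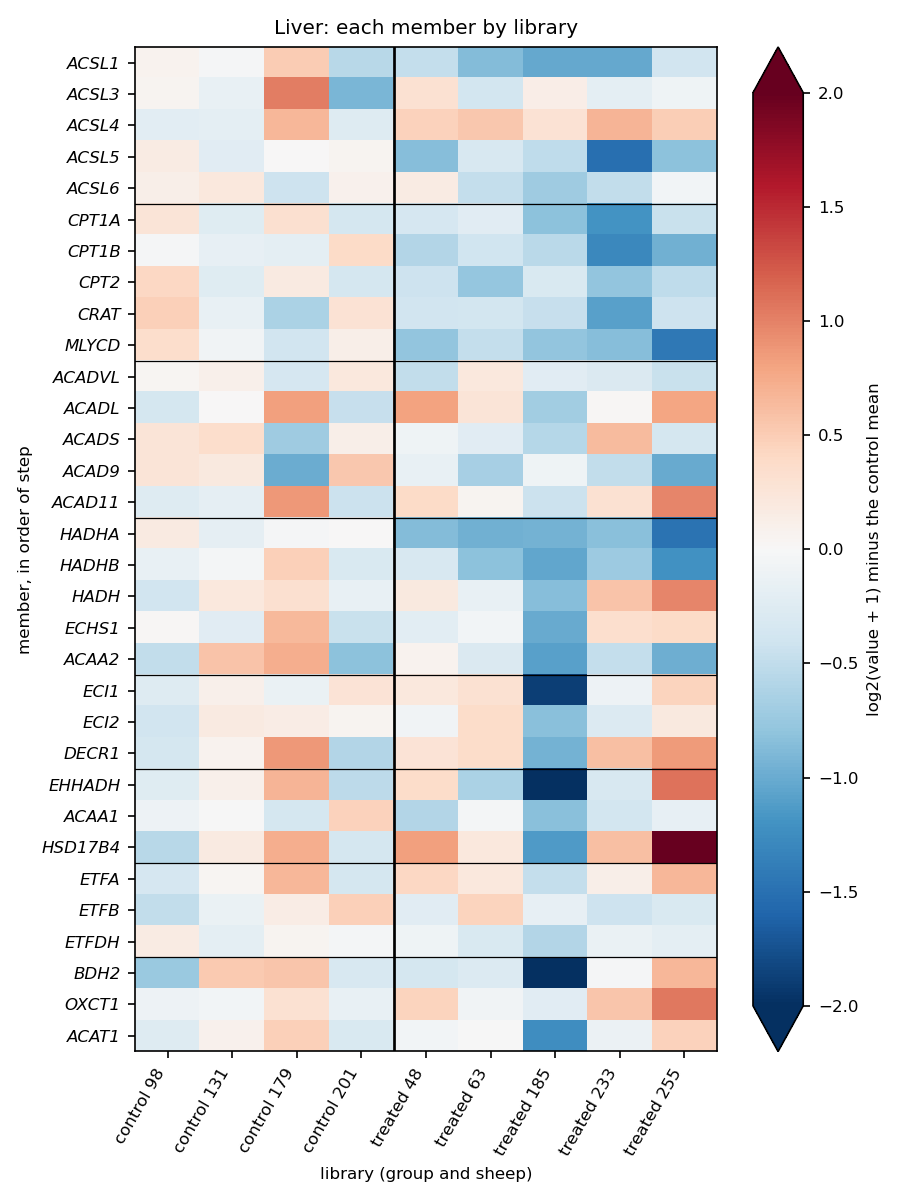
Distance of each liver library from the control mean of each member on the log2(value + 1) scale, in order of step with lines between steps, controls left and treated sheep right of the vertical line. In HADHA, HADHB, MLYCD, ACSL5 and CPT1B every treated liver lies below every control liver. The column of treated sheep 185 is the lowest treated one for 19 of 32 members.

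Other genes of the pathway were read from lists written beside the members. Of 47 such genes tested in liver, 7 (14.9%) were lower and 1 (2.13%) was higher at an unadjusted p below 0.05, against 2.17% and 1.82% of all genes. Lower were 3 of 12 for entry and carnitine and 3 of 7 for ketone making and transport. Of the regulators 1 of 16 was lower, and 0 of 12 for peroxisome and side chains. Of the 47, 0 passed the adjusted limma threshold (0.00733% of all genes did). Their median was -0.39, against 0.0032 over all genes. These lists too were chosen with earlier results known, so the contrast is not an independent test. SLC25A20, which carries acylcarnitines between CPT1 and CPT2, had 1331, 1316, 1411 and 929 in control and 778, 799, 536, 745 and 495 in treated livers. These groups did not overlap either (limma adjusted p = 0.865, DESeq2 adjusted p = 0.0884). FGF21, a fasting hormone of liver, had 289 to 889 in control and 19.5 to 488 in treated livers, with overlap. Its log2 difference of -2.39 ± 0.69 (SE) was the lowest of the 47, and it did not pass (limma adjusted p = 0.865, DESeq2 adjusted p = 0.298). PPARA, the receptor that switches on many of these genes, had means of 1506 ± 386 (SD, n = 4) and 1491 ± 461 (SD, n = 5). For comparison, 18 citrate cycle genes had a median of -0.12 with 1 lower (5.56%) and 0 higher at the same unadjusted p. The 13 genes of de novo lipogenesis had a median of -0.68 with 4 lower (30.8%) and 0 higher. Beside both stand 2.17% of all genes lower and 1.82% higher.

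Markers of some other cell types differed in level between the liver groups, and their part in these differences was not tested. All 6 adipocyte markers tested, of 9 in the list, lay below 0, 3 of them at an unadjusted p below 0.05. Of all genes 49.6% lay below 0, and 2.17% were lower and 1.82% higher at that p. The summed level of all 9 adipocyte markers ran from 352 to 639 in control and from 191 to 415 in treated livers. ADIPOQ, which defines adipocytes, had 0 in each control liver and at most 1 read in a treated one. All 9 T and NK cell markers tested, of 10, lay above 0, 2 of them at that p, with sums of 287 to 457 in control and 388 to 757 in treated livers. The 7 cholangiocyte markers summed to 257 to 2433 in control and 2232 to 8690 in treated livers, while 4 of the 6 tested lay below 0, with a median of -0.15, and 1 was higher at an unadjusted p below 0.05. Most of that sum was SPP1, with 82.3 to 2223 in control and 1827 to 8457 in treated livers, while KRT7 had 29.0 to 47.9 and 30.3 to 84.8 and EPCAM 19.4 to 44.5 and 6.50 to 40.2. No marker of these 3 lists was at 0 in every liver. The hepatocyte markers overlapped, with sums of 935855 to 1801571 in control and 934633 to 2193670 in treated livers.

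The third comparison asked the same of muscle, where the members showed little. No member passed the adjusted limma threshold, the smallest adjusted p being 0.253, while 0.00771% of all genes did. At an unadjusted p below 0.05, 2 of 32 members (6.25%) were lower and 0 were higher, against 7.00% and 7.37% of all genes, so the share lower was near the background. The edgeR test gave 1 lower and 2 higher at that p and 0 past its adjusted threshold (0.00771% of all genes). DESeq2 called 0 members and 2.21% of all genes, with 2 members lower and 3 higher at its unadjusted p below 0.05. For neither test is the share of all genes at its unadjusted p given here. The median was -0.076 over the members and -0.013 over all genes. In 0 members were the groups apart, against 1.53% of all genes with every treated muscle below and 1.76% with every treated muscle above. The count of lower members was 6 without control sheep 132, whose muscle was low in many of them, and 1 without control sheep 98, 131 or 201 or treated sheep 48, 185 or 233.

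HADH, the dehydrogenase for shorter chains, had 2882, 3175, 2112, 2076 and 2792 in the control muscles of sheep 98, 131, 132, 179 and 201, and 1789, 1856, 2158, 1798 and 2223 in the treated muscles of sheep 48, 63, 185, 233 and 255. Controls 132 and 179 lay among the treated values. The log2 difference was -0.39 ± 0.14 (SE, limma adjusted p = 0.253). ETFA had 3668, 4185, 3151, 3582 and 3538 in control and 3095, 3533, 2552, 3012 and 2781 in treated muscles, with treated sheep 63 above control sheep 132. Its log2 difference was -0.28 ± 0.13 (SE, limma adjusted p = 0.336).

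The genes that stood out in liver overlapped between the groups in muscle. HADHA had 9865, 11550.2, 5419.6, 7946 and 8303 in control and 5682, 8931, 5469, 6935 and 7438 in treated muscles, and HADHB 16612, 17230.0, 9957, 12545 and 15517 in control and 14908, 14007, 9684, 12498 and 16049 in treated muscles. Their log2 differences were -0.30 ± 0.20 (SE) and -0.090 ± 0.19 (SE). CPT1B, the main CPT1 of muscle, had 2654, 3725, 1909.9, 2251 and 2576 in control and 2803, 4837, 4321, 3635 and 2422 in treated muscles. Its treated mean was the higher, by 0.45 ± 0.21 (SE, limma adjusted p = 0.354), with treated sheep 63 and 185 above every control and treated sheep 255 below 3 of the controls.

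CPT1A had 401, 412, 373, 399 and 324 in control and 561, 465, 489.9, 363 and 411 in treated muscles, a log2 difference of 0.25 ± 0.13 (SE). CPT2 had 860.5, 933, 461, 603 and 662 in control and 651, 1127, 578, 854 and 628 in treated muscles. For CPT2 the treated muscle of sheep 63 was the highest of all and the control muscle of sheep 132 the lowest. ETFDH had 3169, 3995, 1904, 2722 and 2933 in control and 2012, 3466, 2066, 2363 and 2218 in treated muscles, with control 131 highest and control 132 lowest.

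Of the ketone genes in muscle, OXCT1 had 3928, 4707, 3688, 3016 and 4457 in control and 2158, 3526, 2493, 2924 and 4597 in treated muscles, a log2 difference of -0.37 ± 0.20 (SE, limma adjusted p = 0.416). BDH1, a low gene, had 25.8, 76.9, 44.0, 10.4 and 68.4 in control and 35.5, 44.5, 129, 109.9 and 26.2 in treated muscles. Its spread within each group was wide, and the log2 difference of 0.62 ± 0.54 (SE) was close to its error. ACAT1 had 4146, 5527, 4151, 3579 and 4737 in control and 3581, 5957, 3718, 3928 and 4658 in treated muscles, with a difference of -0.030 ± 0.17 (SE).

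Of the remaining muscle members, 2 peroxisomal genes had the higher treated mean, ACAA1 with 194 ± 37.5 (SD, n = 5) and 281 ± 101 (SD, n = 5) and HSD17B4 with 468 ± 121 (SD, n = 5) and 655 ± 259 (SD, n = 5), and both overlapped. All 3 enzymes for unsaturated chains lay below 0, from -0.26 (ECI1) to -0.20 (ECI2). All 4 activating enzymes tested lay between -0.15 (ACSL1) and -0.061 (ACSL4). Of 44 other pathway genes tested in muscle, 5 (11.4%) were lower and 1 (2.27%) was higher at an unadjusted p below 0.05. Of all genes 7.00% were lower and 7.37% higher at that p. Of the 44, 0 passed the adjusted limma threshold (0.00771% of all genes did). PDK4, which turns pyruvate away from oxidation when fat is burned, had 57837 to 87014 in control muscles and 60897 to 82430.1 in 3 treated muscles, but 12616 in treated sheep 48 and 4922 in treated sheep 255. All 18 citrate cycle genes lay below 0 (51.6% of all genes did), with a median of -0.36. At that unadjusted p 4 of them (22.2%) were lower, against 7.00% of all genes.

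**Figure D4:**
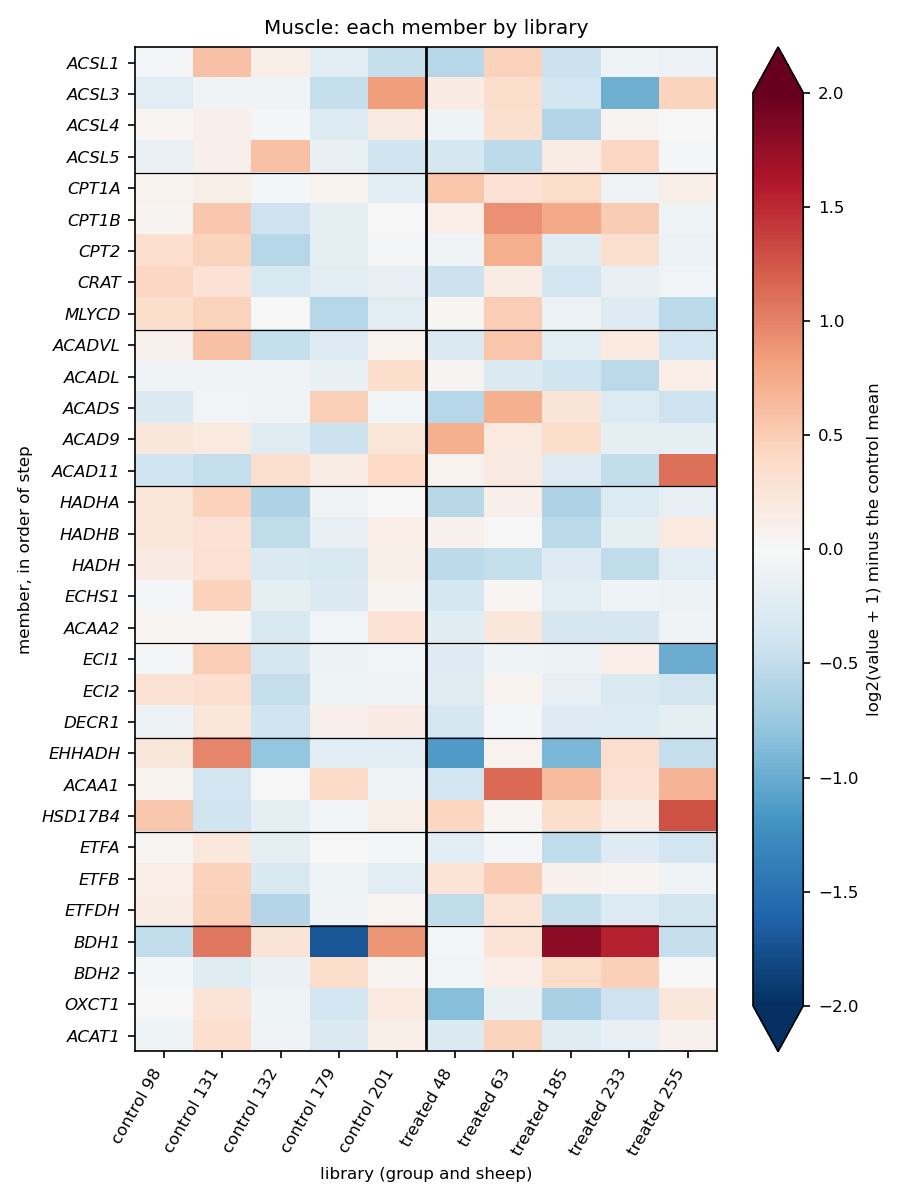
Distance of each muscle library from the control mean of each member on the log2(value + 1) scale, arranged as for liver. The column of control sheep 131 is the highest control for 20 of 32 members, that of control sheep 132 the lowest for 14, and no member separates the groups.

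Slow-fibre markers were highest and lowest in the 2 control muscles that stood apart, but did not follow treated sheep 63. The 8 markers of slow fibres, which burn fat, summed to 220704 in control sheep 131, the highest of all muscles, and to 68524 in control sheep 132, the lowest. The other controls lay at 112869, 140277 and 117412, and the treated muscles between 96258 and 133715. Sheep 63, the highest treated muscle for 18 of 32 members, had the lowest treated sum, 96258. For the 10 markers of fast fibres, controls 131 and 132 lay inside the control range, at 1458890 and 1439912. These markers summed to 1317934 to 1610794 in control and 716595 to 1357801 in treated muscles, and 9 of these 10 lay below 0 (51.6% of all genes did). No slow or fast marker was at 0 in every muscle. All 6 adipocyte markers tested lay below 0 in treated muscle too, 3 of them at an unadjusted p below 0.05 (7.00% of all genes were lower at that p). Their sums over all 9 were 1383 to 2856 in control and 1148 to 2458 in treated muscles. ADIPOQ had 66.5 to 357 and 31.6 to 156, and PNPLA3 was at 0 in every muscle. Of 8 T and NK cell markers tested 0 lay below 0, and 1 was higher at that p (7.37% of all genes were). Their sums over all 10 were 174 to 252 in control and 209 to 369 in treated muscles. The part of these cell types and fibres in the muscle values was not tested.

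The fourth comparison asked whether the effect of treatment differed between the tissues. No member passed the adjusted limma threshold for the effect in muscle minus that in liver, the smallest adjusted p being 0.590, and 0.00855% of all genes passed. At an unadjusted p below 0.05, 8 of 31 members had the higher effect in muscle and 1 the lower, against 2.56% and 2.34% of all genes. As in liver, this contrast is not an independent test, since the names were chosen with earlier results of these data known. The edgeR test gave 9 higher, 0 lower and 0 past its adjusted threshold. Its unadjusted counts have no share of all genes beside them here. The shared liver values make the counts of either test depend on those given for liver. The difference was 1.20 ± 0.32 (SE) for CPT1B, 0.86 ± 0.28 (SE) for CPT1A, 0.79 ± 0.33 (SE) for MLYCD and 0.68 ± 0.32 (SE) for CPT2. CPT1B was below all controls in treated liver and had the higher treated mean in muscle. It was 0.71 ± 0.29 (SE) for HADHA, 0.73 ± 0.32 (SE) for HADHB, 0.74 ± 0.33 (SE) for ACSL5 and 0.87 ± 0.34 (SE) for ACAA1. OXCT1 was the 1 member with the lower effect in muscle, at -0.72 ± 0.34 (SE). With the sheep as a block, since both tissues came from the same animals, 8 had the higher and 2 the lower effect, ACSL4 being added, and the smallest adjusted p was 0.374.

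**Figure D5:**
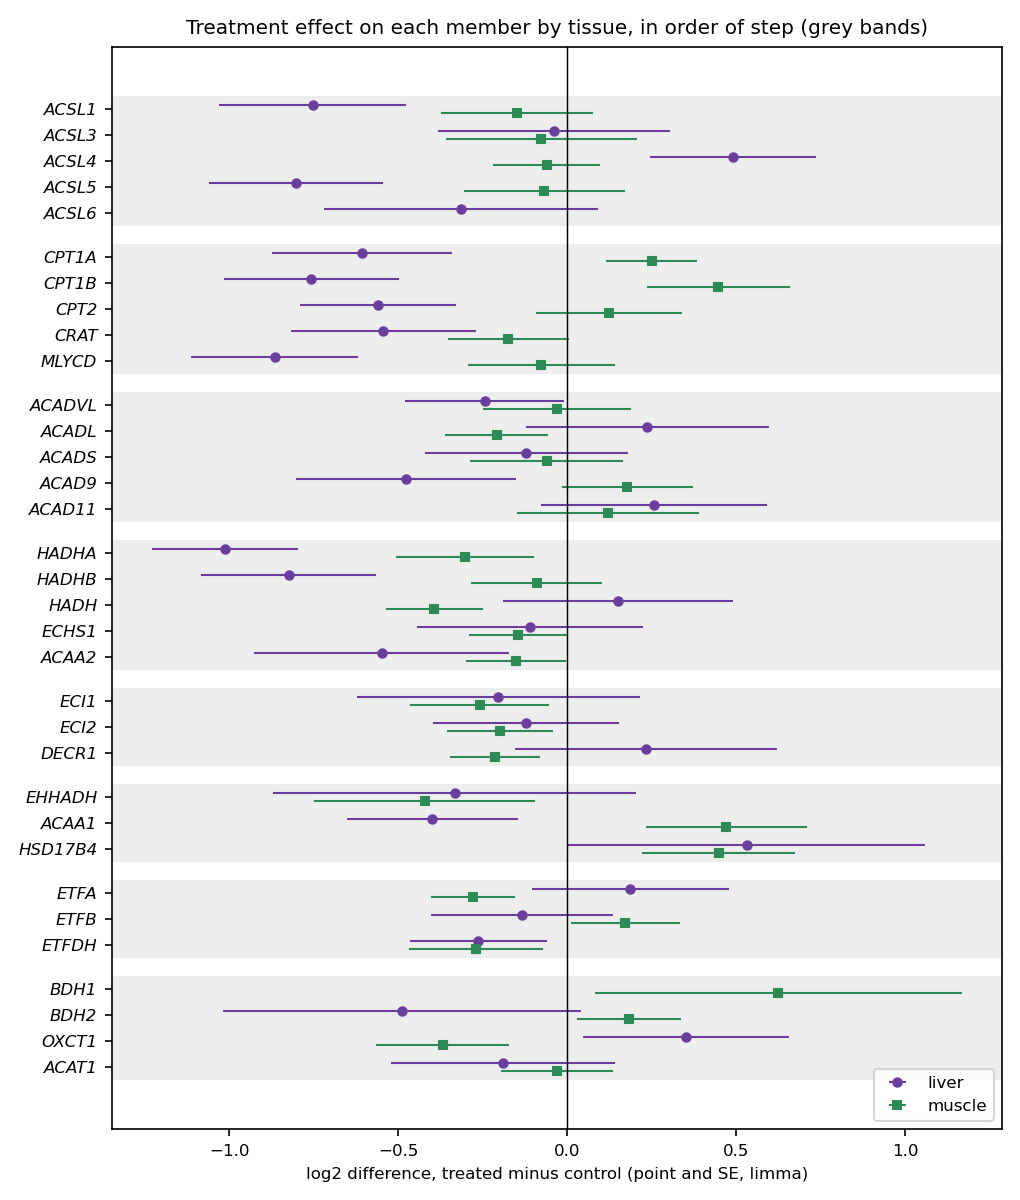
Log2 difference of treated minus control for each member in liver (circles) and muscle (squares), with bars of 1 SE, in order of step. All 5 carnitine shuttle genes lie below 0 in liver, from -0.87 to -0.54, while in muscle they lie between -0.17 and 0.45.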

How the data were processed

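The deposited values were a normalized signal, read counts per gene divided by a size factor per library, in 1 table. Trimmomatic, STAR and featureCounts 1.6.1 are named in the submitters' processing notes. The sources used here name no genome build, annotation or strand setting. In each library 100% of the values were whole multiples of 1 read within 0.01 read, and the factors were those of the median of ratios within each tissue, to a relative 3.9e-11. So values compare libraries within a tissue, and for the tissue comparison the recovered reads were rescaled over all 19 libraries with TMM.

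Members and lists were chosen with earlier results of these data known. Genes with a mean of at least 10 were tested on log2(value + 1) with limma 3.58.1 (R 4.3.3, mean-variance trend), with Benjamini-Hochberg adjustment over all genes at 0.05: 13640 in liver, 12966 in muscle, 11697 for the difference of effects and 14909 between tissues. Fold changes on this scale are understated for low genes. The edgeR 4.0.16 quasi-likelihood test and DESeq2 1.42.0 were run on the recovered reads. The steps were tested on simulated counts. All 33 members matched a symbol in the RefSeq gene table of ARS-UI_Ramb_v3.0. No sequence is printed, and some genes of the other pathway lists are not reported here by name.

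Values in every library are given for members with an unadjusted p below 0.05 in a tissue and for CPT1A, CPT1B, CPT2, HADHA, HADHB, ETFDH, BDH1, OXCT1 and ACAT1. The exception is BDH1 in liver, which was too low to test and is given by its range of reads. For the tissue comparison the rule was the 5 largest differences in each direction. Further members are given by means or ranges, and EHHADH, HSD17B4, ECI1 and BDH2 in single livers, and SPP1 among the markers, were chosen after their values were seen. Sheep numbers pair the tissues, as they name the animal. Deviations from group means correlated at a median of 0.177 within a sheep and -0.019 between sheep, over 0.1 in 9 of 9. The liver correlated best with the muscle of its own sheep in 7 of 9. Centring on group means itself lowers the values between sheep of a group, so these are no neutral baseline. As alternatives, the pseudocount was 0.25 or 4, the filter was dropped or set to a mean of 50, other scalings and array weights were used, all libraries were fitted at once, sheep was made a block and each library was left out in turn.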

Additional observations from a re-analysis of the deposited data

Results flagged for a closer look

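Of 128 groups of member values, 10 held a library far from the rest of its group by Dixon's ratio, and chance flags about 1 in 20. In control liver, sheep 179 had 304 for ACSL4, where the next highest had 169, and 4753 for ACAD11, where the next had 2309. In treated liver, sheep 233 had 1217 for CRAT, below 1889.5 to 2008, sheep 255 had 1447 for HADHA, below 2069 to 2254, and sheep 63 had 7587 for ETFB, above 4177 to 5008. In control muscle, sheep 201 had 1665 for ACSL3 (next 890.1) and 897 for ACADL (next 669), and sheep 179 had 1607 for ACADS (next 1107). In treated muscle, sheep 255 had 1108 for HSD17B4 (next 612) and sheep 63 had 3466 for ETFDH (next 2363). HSD17B4 was highest in treated sheep 255 in liver as well.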

How the results depend on the processing

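In every alternative run, including each library left out, limma and edgeR called 0 members between treated and control sheep. DESeq2 called 1 in liver, HADHA. The count of liver members lower at an unadjusted p below 0.05 was 6 to 8 without 1 library, and the count higher was 0 to 1, being 1 with 1 fit of all libraries and with array weights. In muscle the lower count was 1 to 6 without 1 library, 0 with 1 fit of all libraries and 1 with TMM scaling or edgeR, and the higher count was 0 to 2 without 1 library (above 0 without control 98, 131 or 179 or treated 48, 63, 233 or 255), 1 with TMM scaling or array weights, 2 with edgeR and 3 with DESeq2. For the difference of effects the lower count was 0 with edgeR, 2 with the sheep as a replicate block and 0 to 3 without 1 sheep (0 without 48, 98, 131, 132, 201 or 233, 2 without 63, 3 without 179 or 185), and the higher count 5 to 8 without 1 sheep. It was 5 without sheep 132, 201, 255 or 63. The block changed no call past the adjusted threshold in that comparison.

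The member median without 1 library ran from -0.35 to -0.11 in liver (-0.11 without treated 185), from -0.19 to -0.033 in muscle (-0.19 without treated 63, -0.15 without control 179, -0.033 without control 131) and from 0.082 to 0.28 for the difference (0.082 without sheep 185, 0.0886 without 63, 0.096 without 132, 0.26 without 48, 0.28 without 255). Between tissues it ran from -0.999 to -0.77, with 17 to 19 members higher in liver and 10 to 11 in muscle. The HADHA to HADHB log2 ratio differed by -0.35 to -0.080 in liver and by -0.29 to -0.10 in muscle without 1 library. The muscle difference of ACAT1 changed sign with array weights (0.013). Without 1 library it ran from -0.15 to 0.053, that of ACAT1 in liver from -0.35 to 0.071, and in muscle that of CPT2 from -0.025 to 0.24 and that of HADHB from -0.22 to 0.022. The cause was not tested.

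BDH1 in liver and ACSL6 in muscle were too low to test.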

Other observations

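Propionate, the main glucose precursor of ruminants, enters the citrate cycle through PCCA, PCCB, MCEE and MMUT. The list read here also named MMAA, MMAB and MMACHC, and 7 of its 8 names were measured. All 7 were higher in control liver than in control muscle (limma adjusted p below 0.05), as were 36.1% of all genes. Their median log2 difference was -1.41. Of 18 citrate cycle genes 17 were higher in control muscle, as were 32.7% of all genes, with a median of 2.11. Between treated and control sheep 0 of the 7 propionate genes passed the adjusted limma threshold in either tissue. At an unadjusted p below 0.05, 0 were lower in liver and 1 in muscle, against 2.17% and 7.00% of all genes.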
